A study of Mus musculus with 100 samples.

Results

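The collagen genes of the mouse were followed from fibroblasts to induced pluripotent stem cells (iPSCs) and embryonic stem cells (ESCs). They were taken as every row of the all-genes expression table whose symbol is Col, a number, the letter a and a number, which gave 43 of 25965 genes. The table holds RNA-seq levels for 18 libraries, 3 from each of 6 groups. The iPSC lines arose in the study from mouse embryonic fibroblasts (MEFs) of F1 embryos at E13.5, whose C57BL/6J-background i4F-BL6 mother carried a doxycycline-inducible cassette of Oct4, Sox2, Klf4 and c-Myc (rtTA in the Rosa26 locus) and whose father was CAST/EiJ. The cassette is thus shared by the MEFs and all iPSC lines. So are the autosomes of both parents, as far as the study reports, apart from a chromosome of the line F KSR2. For that line the study reports maternal uniparental disomy, with both copies of the chromosome from the mother. Of the collagens, Col1a2 and Col28a1 lie on that chromosome. The male lines lack the father's X chromosome, and Col4a5 and Col4a6 lie on the X. Median levels of chromosomes also differed between lines, such as chromosome 1 of M KSR3 at 0.58 (log2) above the other lines. Copy number was not tested. Each iPSC line was a clone picked under doxycycline, then grown on feeder cells without doxycycline in medium with knockout serum replacement (KSR) and LIF.

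The groups were female MEFs, 4 KSR lines and TX 2i ESCs. Of the KSR lines, F KSR2 with F KSR4 were female and M KSR3 with M KSR5 male. TX 2i ESCs were a female BL6/CAST ESC line kept in medium with foetal bovine serum, LIF and 2i. The latter is the GSK3 inhibitor CHIR99021 with the MEK inhibitor PD0325901. The lines of each sex came from the MEFs of 1 embryo and no male MEF library was analysed, so sex, embryo and line cannot be told apart. Medium (KSR against serum with 2i) and line origin likewise cannot be told apart between the KSR-iPSCs and the TX 2i ESCs. The labels call the replicates biological triplicates and do not say how they were separated, so p-values measure the spread between these libraries. The 4 KSR lines hold 12 libraries and are called KSR-iPSCs where pooled.

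Collagens are trimers of chains that wind into a triple helix. Fibrillar types such as I, III and V assemble into the fibres of connective tissue, which fibroblasts lay down, while type IV forms the sheet of basement membranes and type VI a beaded microfilament that links cells to the matrix. FACIT collagens sit on fibril surfaces, types VIII and X form networks, type VII anchors epithelia, multiplexins lie in basement membrane zones, and a few types span the plasma membrane. By structural class the 43 genes comprised 11 fibrillar, 9 FACIT, 6 basement membrane (type IV), 6 beaded filament (type VI), 4 network and anchoring, 4 transmembrane and 2 multiplexin genes, with Col28a1 left as a class of its own.

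The libraries held between 13183036 and 17921280 reads on genes, and 1 read stood at a log2 RPM (reads of a gene scaled to a total per library, as deposited) of -4.29 to -3.89. The total behind these values is 1.08 to 1.21 times the library's reads on genes, and its definition is not given in the sources used here. All RPM values below are on this deposited scale. A gene without reads is held in the table at 0.9 read, and such values are given here as 0 reads. A count of 0 allows up to 3 reads in that library, and these floors, like the intervals below, cover counting error only. All 15 fibroblast markers had reads in each MEF library, with a summed level of 7596 to 8859 RPM, against 27.6 to 194 RPM in the KSR-iPSC libraries and 43.4 to 59.7 RPM in TX 2i ESCs. The 12 pluripotency markers summed to 119.6 to 171 RPM in MEFs, 4545 to 6859 RPM in KSR-iPSCs and 7674 to 9583 RPM in TX 2i ESCs. The highest fibroblast marker sum among the iPSC libraries belonged to M KSR5 replicate 3, which is taken up below with the collagens it touches.

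Collagen reads made up 3.94% ± 0.841 (SD, n = 3) of all gene reads in MEFs, between 3.31% and 4.89%. In KSR-iPSCs they made up 0.0587% ± 0.0126 (SD, n = 12) and in TX 2i ESCs 0.0488% ± 0.0026 (SD, n = 3). Col1a1, Col1a2 and Col3a1 alone accounted for 2.59% of MEF reads. In MEFs 33 of the 43 genes stood above 1 RPM in all 3 libraries. That number was 17 in F KSR2, F KSR4 and M KSR5, while M KSR3 had 18 and TX 2i ESCs had 11. Every collagen gene had reads in some MEF library, whereas 8 had none in any TX 2i ESC library and 4 had none in each of the KSR lines taken alone. In bulk RNA, fewer cells of a type and less RNA per cell cannot be told apart.

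**Figure D1:**
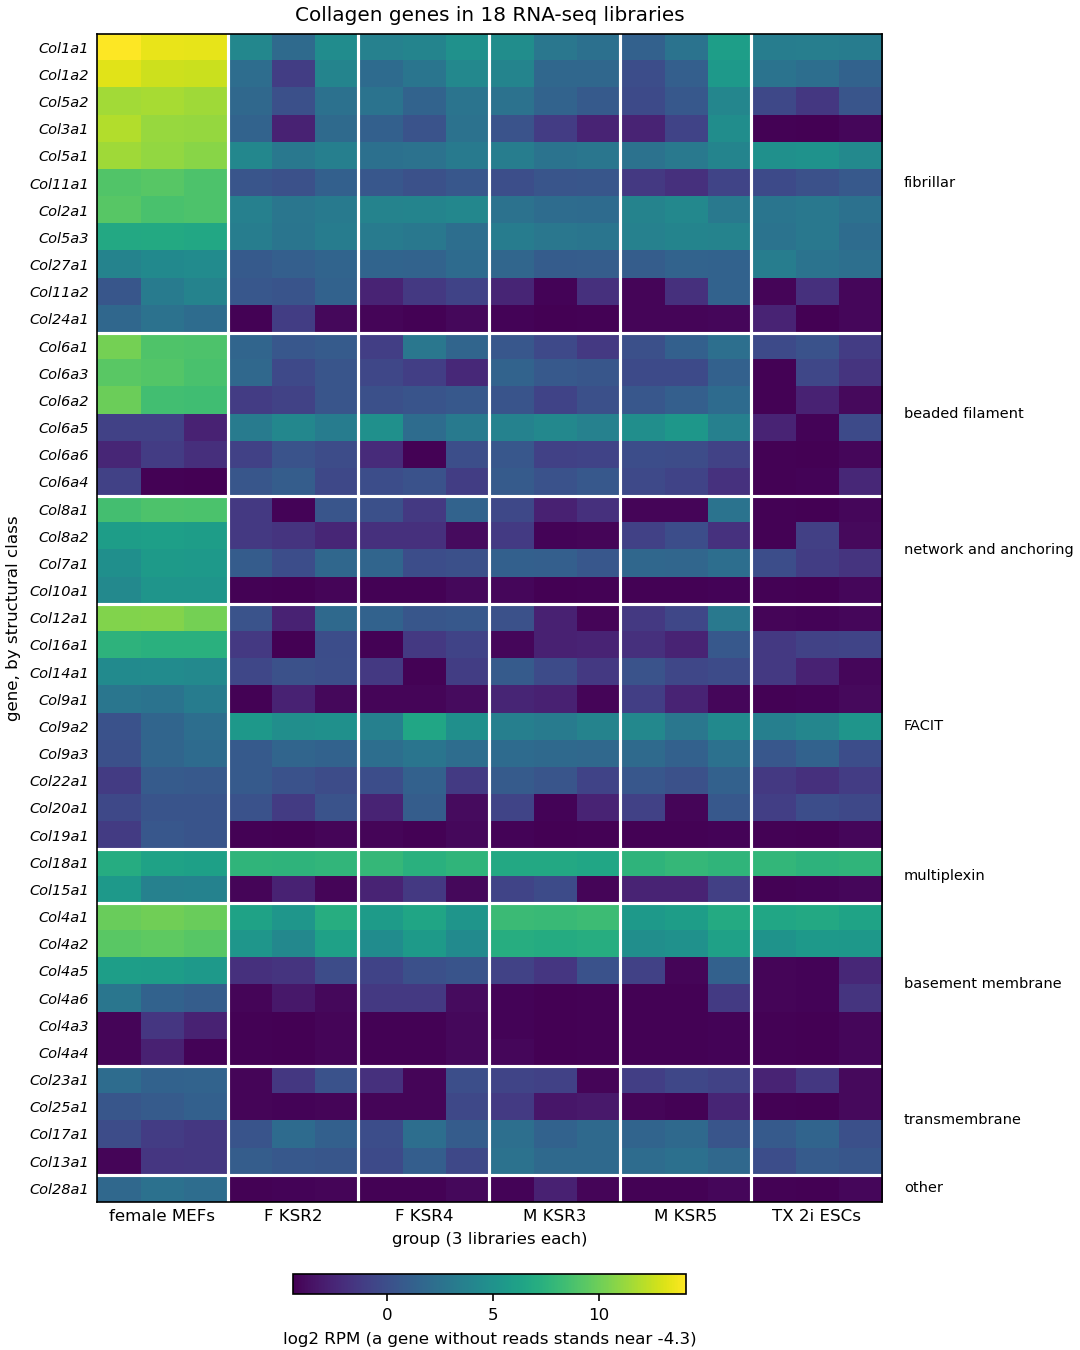
Level of the collagen genes as log2 RPM (colour) in each of the 18 libraries, with genes grouped by structural class and libraries by group. The MEF libraries are brighter than the iPSC and ESC libraries for most genes, and Col9a2, Col13a1, Col17a1 and Col18a1 are among those brighter in the pluripotent cells.

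The comparison with MEFs asks which collagens were lost, kept or gained in the pluripotent lines. Each difference was tested with limma on the log2 values over all genes that passed the filter on low values (log2 RPM above 0 in at least 3 libraries), with Benjamini-Hochberg adjustment over all of them and a threshold of 0.05. Of the 43 collagens 40 passed that filter, and Col19a1, Col4a3 and Col4a4 did not. Among the 40, 8 passed through MEF libraries alone (Col4a6, Col8a2, Col9a1, Col10a1, Col15a1, Col24a1, Col25a1 and Col28a1). Another 3 (Col6a4, Col6a5 and Col6a6) passed through KSR-iPSC libraries alone. The filter itself thus favoured the direction in those 11. Against MEFs, 30 collagens were lower and 6 were higher in KSR-iPSCs, 36 of 40 in all, where 74.3% of the 14632 genes tested passed (41.8% higher, 32.5% lower). The median log2 difference of the 40 was -5.44, beside 0.22 over all genes tested.

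Against the same MEF libraries, 32 collagens were lower and 4 higher in TX 2i ESCs, where 66.5% of all genes tested passed (37.5% higher, 29.0% lower). The median log2 difference was -6.26, or -6.11 with the 5 genes without reads in TX 2i ESCs set at the level that a count of 0 allows, beside 0.20 over all genes. Since both comparisons use the same 3 MEF libraries, their values stand side by side here and were not counted against each other. Between KSR-iPSCs and TX 2i ESCs, 13 collagens were higher and 2 lower in KSR-iPSCs, where 23.0% of all genes passed (11.0% higher, 12.0% lower). That comparison, like the one of KSR-iPSCs with MEFs, treats the 12 iPSC libraries as separate samples. With the line as a random effect, the same 36 collagens passed between KSR-iPSCs and MEFs, where 9099 of the 14632 genes tested did. Between KSR-iPSCs and TX 2i ESCs, 6 of the 15 then passed (Col6a2, Col6a4, Col6a5 and Col6a6 higher, Col5a1 and Col27a1 lower), where 901 of the 14632 genes tested did. These 6 also passed under all other alternatives in which they were tested. Of them, Col6a4, Col6a5 and Col6a6 had entered the test through KSR-iPSC libraries alone, so the filter favoured their direction here as well.

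**Figure D2:**
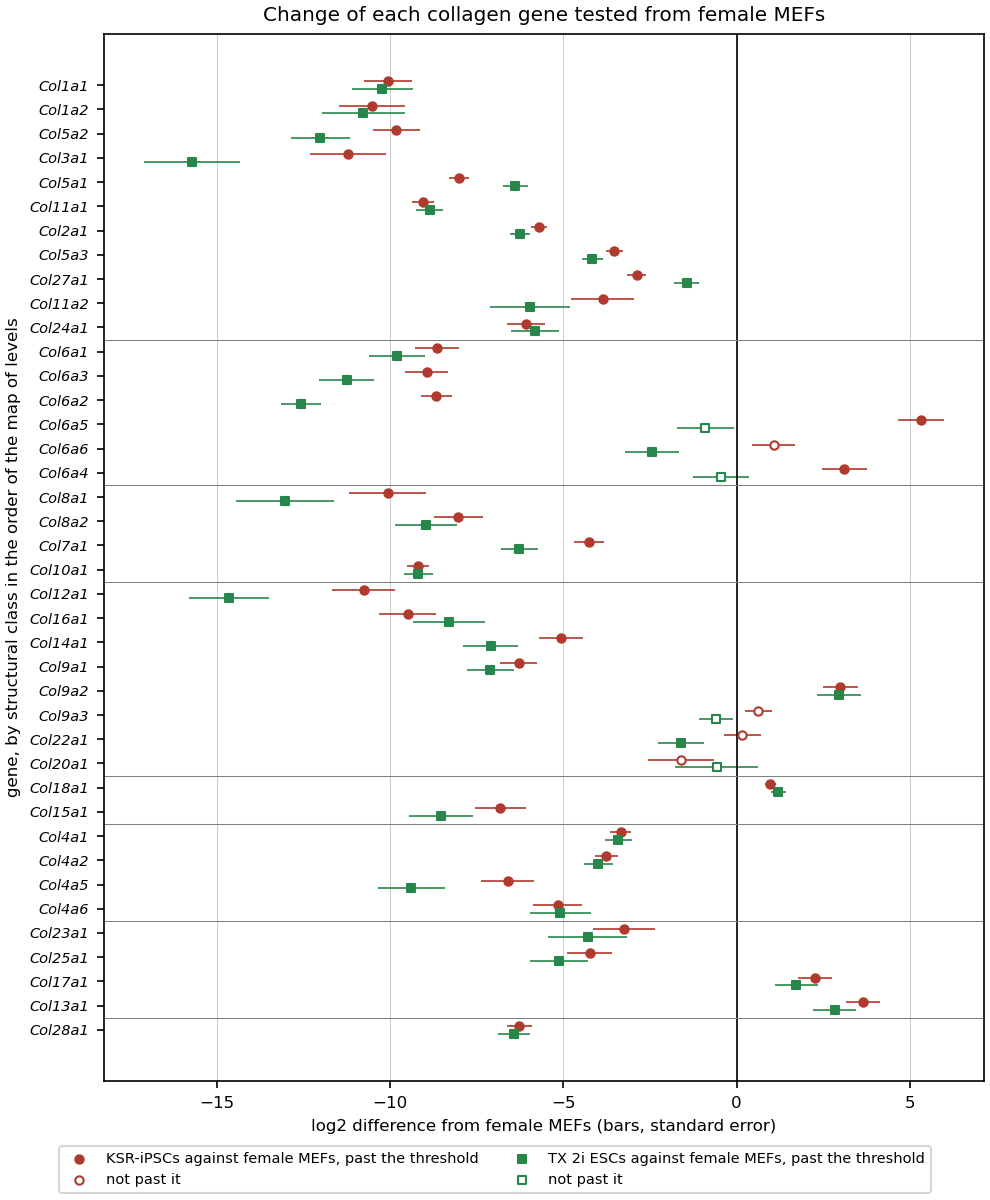
Log2 difference from female MEFs of each tested collagen gene, grouped by class, with separate points for KSR-iPSCs (averaged over the lines) and TX 2i ESCs bars for the standard error of the limma fit, and open symbols for genes that did not pass. All fibrillar and network genes lie below 0, and the genes to the right of 0 include Col6a5, Col13a1, Col9a2, Col17a1 and Col18a1.

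The fibrillar collagens were lower in both kinds of pluripotent cell, with 11 of 11 passing the test in each comparison. Of these, Col24a1 had entered the test through MEF libraries alone, so the filter favoured its direction. Col1a1, the major chain of type I collagen, was the most abundant collagen per length in MEFs. Its level was 14.09, 13.49 and 13.41 log2 RPM in the 3 MEF libraries, and 3.44, 3.52 and 3.34 in those of TX 2i ESCs. In KSR-iPSCs the lowest, median and highest of 12 libraries were 1.31, 3.82 and 5.99. The MEF libraries, with 207483 to 286441 reads of Col1a1, lay far from all others, of which the KSR-iPSC libraries held 45 to 1095. The difference of KSR-iPSCs from MEFs was -10.07 ± 0.69 (log2, SE, adjusted p = 6.27e-10), a 1077-fold lower level, and that of TX 2i ESCs was -10.23 ± 0.88 (adjusted p = 1.77e-08).

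Col1a2, the partner chain of type I collagen, stood at 13.26, 12.70 and 12.62 log2 RPM in MEFs. Its levels ran from -1.05 over a median of 2.10 to 5.54 in KSR-iPSCs, and they were 2.60, 2.23 and 1.42 in TX 2i ESCs, without overlap with MEFs. The log2 difference from MEFs was -10.52 ± 0.95 (adjusted p = 2.34e-08) in KSR-iPSCs and -10.78 ± 1.21 (adjusted p = 4.92e-07) in TX 2i ESCs.

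Col3a1, which forms type III collagen and mixes with type I in soft tissue, separated the pluripotent groups as well. It stood at 11.97, 11.23 and 11.15 log2 RPM in MEFs and ran from -2.64 over a median of 0.29 to 4.63 in KSR-iPSCs, while all 3 TX 2i ESC libraries had 0 reads. Its level was 2391-fold lower in KSR-iPSCs than in MEFs (log2 difference -11.22 ± 1.10, adjusted p = 6.21e-08) and at least 16220-fold lower in TX 2i ESCs, with 3 reads per library as the floor. KSR-iPSCs were at least 6.78-fold above TX 2i ESCs (adjusted p = 0.00674), a call that was lost in 3 alternatives, the line as a random effect among them.

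Type V collagen, which initiates type I fibrils and sets their width, showed opposite orders of its chains in the pluripotent groups. Col5a2 stood at 11.49, 11.65 and 11.46 log2 RPM in MEFs, at -0.27, 1.65 and 4.08 (lowest, median, highest) in KSR-iPSCs, and at -0.46, -1.42 and 0.42 in TX 2i ESCs. Its level in KSR-iPSCs was above that in TX 2i ESCs by 2.19 ± 0.67 (log2, adjusted p = 0.0259), with overlapping libraries, and this call was lost in 6 alternatives. Col5a1 stood at 11.43, 11.08 and 10.83 in MEFs, at 2.37, 3.03 and 4.12 in KSR-iPSCs, and at 4.86, 5.00 and 4.32 in TX 2i ESCs, where every library lay above every iPSC library. Col5a1 was lower in KSR-iPSCs than in TX 2i ESCs by -1.63 ± 0.28 (log2, adjusted p = 0.000493), and its mean RPM was 0.410% of that of MEFs in KSR-iPSCs and 1.20% in TX 2i ESCs. Its differences from MEFs were -8.02 ± 0.28 (adjusted p = 8.53e-14) and -6.38 ± 0.35 (adjusted p = 7.23e-11).

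Col27a1, a fibrillar chain of developing cartilage, behaved as Col5a1 did between the pluripotent groups. It stood at 3.88, 4.34 and 4.48 log2 RPM in MEFs, at 0.84, 1.44 and 2.04 (lowest, median, highest) in KSR-iPSCs, and at 3.39, 2.63 and 2.37 in TX 2i ESCs, with no overlap between any of the 3. Its mean RPM was 38.1% of that of MEFs in TX 2i ESCs and 13.7% in KSR-iPSCs, and the log2 difference between them was -1.45 ± 0.28 (adjusted p = 0.00138).

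The remaining fibrillar chains fell by different amounts. Col2a1, the main fibrillar chain of cartilage, stood at 9.29, 8.80 and 8.90 log2 RPM in MEFs and differed by -5.71 ± 0.23 (log2, adjusted p = 5.24e-13) in KSR-iPSCs. Col11a1, which joins type II fibrils, stood at 9.08, 9.25 and 8.90 in MEFs and differed by -9.06 ± 0.32 (adjusted p = 8.38e-14). Col5a3 fell least of the type V chains, from 6.72, 6.81 and 6.70 in MEFs to a median of 3.32 in KSR-iPSCs (-3.53 ± 0.23, adjusted p = 3.62e-10). Col11a2 was the only fibrillar gene whose iPSC libraries overlapped those of MEFs (-3.87 ± 0.91, adjusted p = 0.000964), and Col24a1 was down to a median of 0 reads in KSR-iPSCs from 56 to 115 reads in MEFs.

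The beaded filament class split into its classical and its later-described chains. The classical chains Col6a1, Col6a2 and Col6a3, which together make the common form of type VI collagen, were lower in both kinds of pluripotent cell than in MEFs. Of the other 3, Col6a4 and Col6a5 were higher in KSR-iPSCs than in MEFs, and Col6a6 did not pass (1.07 ± 0.62, adjusted p = 0.128). Between KSR-iPSCs and TX 2i ESCs, 5 of the 6 genes were higher in KSR-iPSCs, and 4 with the line as a random effect, where Col6a3 was lost. Col6a4, Col6a5 and Col6a6 lie side by side on the minus strand of chromosome 9 in the GRCm38 build, at 105989454 to 106096783, 105858668 to 105960643 and 105689417 to 105828085, with gaps of 28810 and 30582 bases, while Pik3r4 next to the cluster stood at 5.00 log2 RPM in MEFs, 5.70 in KSR-iPSCs and 5.79 in TX 2i ESCs.

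The stretches before the RefSeq start sites of Col6a6 and Col6a5 are shown because these neighbouring genes are the part of type VI collagen that was not lost from MEFs to KSR-iPSCs. They are from the minus strand of GRCm38.p6, written 5′ to 3′, at chr9:105828247-105828335 for Col6a6 and chr9:105960644-105960893 for Col6a5. For Col6a6 the 161 bases nearer to the start are left out, from the first base that lies in an annotated exon. Capitals mark the GC box GGGCGG. The window of Col6a4 begins in an annotated exon and is not printed.
Col6a6: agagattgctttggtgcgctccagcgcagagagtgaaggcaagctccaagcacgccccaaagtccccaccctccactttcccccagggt
Col6a5: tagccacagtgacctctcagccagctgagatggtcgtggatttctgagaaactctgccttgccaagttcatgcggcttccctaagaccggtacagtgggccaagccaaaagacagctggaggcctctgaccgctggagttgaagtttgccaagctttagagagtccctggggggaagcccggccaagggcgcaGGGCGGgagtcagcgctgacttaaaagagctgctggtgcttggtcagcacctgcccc

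Searched on both strands over the 250 bases before each start, GGGCGG began 57 bases before the start of Col6a5, 142 and 91 bases before that of Col6a6, and 173 and 141 bases before that of Col6a4. CCAAT was found 218 bases before the start of Col6a4, TATAAA in none of the 3 windows, and no matches overlapped. Over all 32526 RefSeq windows, 33.0% held GGGCGG, 33.8% CCAAT and 12.3% TATAAA. Of the 35 collagen genes with a window, 21 held GGGCGG, 13 CCAAT and 5 TATAAA in any of their windows, so the GC box stood before 60.0% of them, a share that counts genes rather than windows. Median GC content was 59.6% for these genes (highest window of each) and 52.4% over all windows. Its part in the share with a GC box was not tested. The genes without a window were Col1a1, Col2a1, Col4a3, Col5a2, Col9a3, Col12a1, Col14a1 and Col22a1.

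Col6a5 had the largest rise of the collagens from MEFs to KSR-iPSCs. It had 9, 11 and 3 reads in the MEF libraries (-0.86, -0.84 and -2.66 log2 RPM) and 3, 1 and 13 reads in those of TX 2i ESCs. In KSR-iPSCs the lowest, median and highest library held 78, 239 and 757 reads, or 2.11, 3.76 and 5.41 log2 RPM. Every iPSC library of the 4 lines lay above every MEF and ESC library. The difference was 5.32 ± 0.66 from MEFs (log2, adjusted p = 1.13e-06, 40.0-fold) and 6.22 ± 0.66 from TX 2i ESCs (adjusted p = 5.85e-06, 74.8-fold), whereas TX 2i ESCs and MEFs differed by -0.90 ± 0.83 (adjusted p = 0.352).

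Its neighbours had the same order between the pluripotent groups at much lower counts. Col6a4 had 9, 1 and 0 reads in MEFs, 0, 1 and 3 in TX 2i ESCs, and 5, 19 and 38 (lowest, median, highest) in KSR-iPSCs. The iPSC libraries overlapped those of MEFs (3.11 ± 0.64, adjusted p = 0.000316) but not those of TX 2i ESCs (3.57 ± 0.64, adjusted p = 0.000732). Col6a6 had 3, 9 and 5 reads in MEFs, none in TX 2i ESCs, and between 0 and 26 with a median of 13 in KSR-iPSCs, at least 3.42-fold above TX 2i ESCs (adjusted p = 0.000636). Because F KSR4 replicate 2 had no read of Col6a6 either, the groups overlapped.

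Among the classical chains, Col6a2 marked the pluripotent groups most clearly. It stood at 9.93, 8.47 and 8.42 log2 RPM in MEFs and at -1.16, 0.38 and 2.02 (lowest, median, highest) in KSR-iPSCs, and had 0, 3 and 1 reads in TX 2i ESCs, below every iPSC library. KSR-iPSCs differed by -8.67 ± 0.45 from MEFs (log2, adjusted p = 1.5e-11) and by 3.91 ± 0.45 from TX 2i ESCs (adjusted p = 1.4e-05). Col6a3 stood at 9.36, 9.10 and 8.81 in MEFs and at -2.30, 0.09 and 1.84 in KSR-iPSCs, had 0, 13 and 5 reads in TX 2i ESCs, and differed between the pluripotent groups by 2.30 ± 0.63 (adjusted p = 0.0135) with overlap, a call lost with the line as a random effect (adjusted p = 0.153) and without TX 2i ESCs replicate 1.

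Col6a1 stood at 10.25, 8.99 and 8.95 log2 RPM in MEFs, at -1.36, 0.73 and 2.88 in KSR-iPSCs, and at -0.25, 0.23 and -1.17 in TX 2i ESCs. Its difference between KSR-iPSCs and TX 2i ESCs, 1.15 ± 0.64 (log2, adjusted p = 0.218), did not pass. Its fall from MEFs to KSR-iPSCs, -8.65 ± 0.64 (adjusted p = 1.55e-09), was without overlap. MEF replicate 1 held the highest level of each classical chain.

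**Figure D3:**
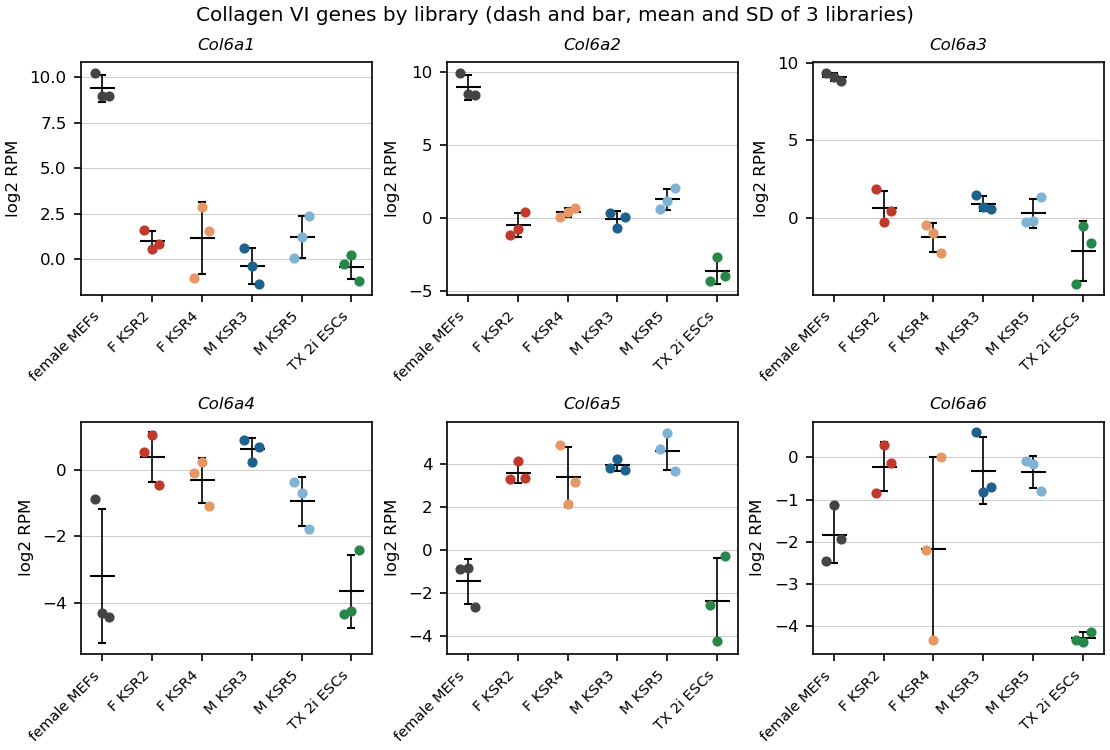
Level (log2 RPM) of the 6 type VI collagen genes in each library, with points for libraries, columns for the 6 groups, and a dash and bar for the mean and SD of 3 libraries. Col6a1, Col6a2 and Col6a3 stand near 9 in MEFs and near 0 in the KSR lines, while Col6a5 stands at 2.11 to 5.41 in the 12 iPSC libraries and below 0 in MEFs and TX 2i ESCs.

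All 4 network and anchoring collagens were lower in KSR-iPSCs and in TX 2i ESCs than in MEFs. Of these, Col8a2 and Col10a1 had entered the test through MEF libraries alone, so the filter favoured their direction. Col8a1, a short-chain network collagen, stood at 8.55, 8.93 and 8.82 log2 RPM in MEFs, ran from -4.22 over a median of -1.36 to 2.62 in KSR-iPSCs, and had 0 reads in every TX 2i ESC library. It was lower by -10.07 ± 1.12 (log2, adjusted p = 2.96e-07) in KSR-iPSCs and at least 2519-fold lower in TX 2i ESCs. Its partner Col8a2, at 5.85, 6.02 and 5.86 in MEFs, ran from -4.29 over -1.82 to -0.07 in KSR-iPSCs and stood at -4.31, -0.90 and -3.97 in TX 2i ESCs.

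Col10a1, the collagen of hypertrophic cartilage, was nearly absent outside MEFs. It had 322, 751 and 702 reads in the MEF libraries, 1 read in all 12 KSR-iPSC libraries together and none in TX 2i ESCs. The ratio of MEFs to KSR-iPSCs was 6835, with an exact counting interval of 1225 to 270100, and the level was at least 175-fold lower in TX 2i ESCs. Col7a1, the anchoring fibril collagen of skin, was less reduced. It stood at 4.76, 5.67 and 5.60 log2 RPM in MEFs, at -0.09, 1.20 and 2.25 (lowest, median, highest) in KSR-iPSCs and at -0.07, -1.05 and -1.65 in TX 2i ESCs, and was higher in KSR-iPSCs than in TX 2i ESCs by 2.01 ± 0.43 (adjusted p = 0.00283), with overlap of the libraries. That call was lost with the line as a random effect (adjusted p = 0.0567).

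The FACIT collagens did not move together. Of the 8 tested, 4 were lower in KSR-iPSCs than in MEFs (Col9a1, Col12a1, Col14a1 and Col16a1), Col9a2 was higher, and Col9a3, Col20a1 and Col22a1 did not pass. In TX 2i ESCs 5 were lower, the additional gene being Col22a1 (-1.61 ± 0.68, adjusted p = 0.0451), a call lost in 10 alternatives. Col12a1, a large collagen of dense connective tissue, stood at 10.59, 10.63 and 10.23 log2 RPM in MEFs and at -4.17, 0.22 and 3.03 (lowest, median, highest) in KSR-iPSCs, and had 1, 1 and 0 reads in TX 2i ESCs. The ratio of MEFs to TX 2i ESCs was 37640, with an exact counting interval of 10420 to 310800. KSR-iPSCs lay above TX 2i ESCs by 3.89 ± 0.91 (log2, adjusted p = 0.00483), a call lost in 3 alternatives, among them the line as a random effect (adjusted p = 0.0851).

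Col16a1, found near fibrils and basement membranes, stood at 7.54, 7.34 and 7.30 log2 RPM in MEFs, at -4.37, -2.21 and 0.70 in KSR-iPSCs and at -1.35, -0.77 and -0.65 in TX 2i ESCs, and its pluripotent groups overlapped (-1.19 ± 0.82, adjusted p = 0.335). Col14a1 stood at 4.41, 4.53 and 4.25 in MEFs, at -4.33, -0.33 and 0.90 in KSR-iPSCs and at -1.35, -2.64 and -4.13 in TX 2i ESCs. Its difference between the pluripotent groups, 2.03 ± 0.63 (adjusted p = 0.0267), was lost in 7 alternatives. Col22a1, a collagen of tissue junctions, stood at -1.23, 0.88 and 0.75 in MEFs, at -1.30, 0.35 and 1.32 in KSR-iPSCs and at -1.35, -1.90 and -1.17 in TX 2i ESCs, with a difference of 1.77 ± 0.54 (adjusted p = 0.0237) between the pluripotent groups that was also lost in 7 alternatives.

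The chains of type IX collagen, a cartilage FACIT made of 1 product each of Col9a1, Col9a2 and Col9a3, went separate ways. Col9a1 was low outside MEFs, with 118 to 191 reads per MEF library, 0 to 9 in KSR-iPSCs and 0 to 1 in TX 2i ESCs. Col9a2 had 19, 59 and 91 reads in MEFs (0.21, 1.59 and 2.26 log2 RPM) and 134, 342 and 1637 (lowest, median, highest) in KSR-iPSCs (2.91, 4.27 and 6.50), and stood at 3.59, 4.09 and 5.24 in TX 2i ESCs. Every pluripotent library lay above every MEF library. The level in KSR-iPSCs was 7.99-fold that in MEFs (SE 0.50 on the log2 scale, adjusted p = 3.35e-05), the log2 difference of TX 2i ESCs from MEFs was 2.95 ± 0.63 (adjusted p = 0.000492), and that between them was 0.04 ± 0.50 (adjusted p = 0.971). Col9a3 stood at 0.05, 1.64 and 2.05 in MEFs, at 0.84, 1.93 and 2.73 in KSR-iPSCs and at 0.60, 1.42 and -0.07 in TX 2i ESCs, and passed between the pluripotent groups alone (1.23 ± 0.40, adjusted p = 0.0326, lost in 5 alternatives).

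The multiplexins moved in opposite directions. Col18a1, whose product is a heparan sulphate proteoglycan of basement membranes and the source of endostatin, had the highest mean level per length of any collagen in TX 2i ESCs and, over the 4 lines, in KSR-iPSCs, though not within M KSR3. It stood at 7.06, 6.28 and 6.08 log2 RPM in MEFs, at 6.56, 7.67 and 7.90 (lowest, median, highest) in KSR-iPSCs and at 7.81, 7.58 and 7.66 in TX 2i ESCs. The level was 1.96-fold higher in KSR-iPSCs than in MEFs (0.97 ± 0.16 on the log2 scale, adjusted p = 3.35e-05), with overlap through M KSR3, and 2.31-fold higher in TX 2i ESCs (1.21 ± 0.20, adjusted p = 5.06e-05), without overlap. Per kilobase of the longest coding transcript this was 16.6 ± 6.35 RPM in MEFs, 32.6 ± 9.19 RPM in KSR-iPSCs and 36.8 ± 3.0 RPM in TX 2i ESCs (SD, n = 3, 12 and 3). Col15a1, the related chain, stood at 5.49, 3.69 and 3.76 log2 RPM in MEFs and at a median of -2.59 in KSR-iPSCs (-6.82 ± 0.73, adjusted p = 1.87e-07), and had 1 read in the TX 2i ESC libraries together.

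The basement membrane collagens fell but the main pair remained well expressed. Col4a1 and Col4a2, the head-to-head chains of the ubiquitous type IV network, ranked among the most abundant collagens per length in KSR-iPSCs and TX 2i ESCs. Col4a1 stood at 9.83, 10.10 and 9.86 log2 RPM in MEFs, at 5.19, 6.35 and 8.23 (lowest, median, highest) in KSR-iPSCs and at 6.50, 6.76 and 6.31 in TX 2i ESCs. Its level was 10.2-fold lower in KSR-iPSCs (-3.35 ± 0.31, adjusted p = 2.65e-08) as the mean of the log2 values, and the log2 difference of TX 2i ESCs was -3.41 ± 0.39 (adjusted p = 5.85e-07), with no overlap with MEFs in either. The mean RPM of Col4a1 was 29.6% of that of MEFs in M KSR3 and 6.08% to 8.68% in the other lines.

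Col4a2 stood at 9.33, 9.52 and 9.30 log2 RPM in MEFs, at 4.23, 5.51 and 7.12 (lowest, median, highest) in KSR-iPSCs and at 5.10, 5.60 and 5.45 in TX 2i ESCs, and was 13.6-fold lower in KSR-iPSCs than in MEFs (-3.77 ± 0.33). The ratio of Col4a1 to Col4a2 per length was 1.43 ± 0.0426 in MEFs (SD, n = 3 for each group). Among the female lines F KSR2 had 1.94 ± 0.141 and F KSR4 had 1.83 ± 0.273, among the male lines M KSR3 had 2.13 ± 0.0871 and M KSR5 had 1.80 ± 0.123, and TX 2i ESCs had 2.17 ± 0.395. The MEF libraries held the lowest ratios.

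The minor type IV chains of specialised basement membranes were low. Col4a5, on the X chromosome, stood at 5.92, 5.87 and 5.61 log2 RPM in MEFs, at -4.16, -0.75 and 1.32 in KSR-iPSCs and at -4.16, -4.22 and -2.39 in TX 2i ESCs. It was lower in KSR-iPSCs than in MEFs by -6.60 ± 0.76 and higher than in TX 2i ESCs by 2.79 ± 0.76 (adjusted p = 0.0142, lost in 5 alternatives). Col4a6 fell from 38 to 116 reads in MEFs to at most 7 reads in any pluripotent library. Col4a3 and Col4a4, which did not pass the filter, had at most 7 and 3 reads in any MEF library and at most 1 in the others.

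The transmembrane collagens divided evenly. Col13a1, a transmembrane collagen of cell adhesion sites, had 0, 7 and 7 reads in the MEF libraries and 11, 49 and 102 (lowest, median, highest) in KSR-iPSCs, and stood at -0.07, 0.90 and 0.55 log2 RPM in TX 2i ESCs. All pluripotent libraries lay above those of MEFs, by 3.65 ± 0.49 (log2, adjusted p = 3.17e-06, 12.6-fold) in KSR-iPSCs and 2.83 ± 0.62 (adjusted p = 0.000652, 7.13-fold) in TX 2i ESCs. Col17a1, the hemidesmosome collagen of epithelia, stood at -0.13, -1.12 and -1.44 in MEFs, at -0.09, 1.45 and 2.36 in KSR-iPSCs and at 0.84, 1.50 and 0.11 in TX 2i ESCs. The libraries did not overlap, with differences of 2.26 ± 0.49 (adjusted p = 0.00052, 4.79-fold) and 1.72 ± 0.62 (adjusted p = 0.0221), the latter lost in 6 alternatives. Both genes remained low per length, at 0.931 ± 0.545 and 0.522 ± 0.250 RPM per kilobase in KSR-iPSCs (SD, n = 12).

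Of the other transmembrane chains, Col23a1 stood at 2.10, 1.38 and 1.48 log2 RPM in MEFs, at -4.18, -0.92 and 0.21 in KSR-iPSCs and at -2.57, -1.42 and -3.97 in TX 2i ESCs (-3.26 ± 0.90 between KSR-iPSCs and MEFs, adjusted p = 0.00351). Col25a1, a neuronal chain, stood at 0.55, 0.91 and 1.24 in MEFs and had a median of -4.17 in KSR-iPSCs. Col28a1, a short collagen of its own class, stood at 1.80, 2.49 and 2.21 in MEFs, had at most 3 reads in a KSR-iPSC library and 0 reads in TX 2i ESCs, at least 26.0-fold lower.

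Set in order by level per length, the collagens of MEFs were led by Col1a1 with 2243 RPM per kilobase, Col1a2 with 1418, Col3a1 with 521, Col5a2 with 448 and Col5a1 with 267. In the mean of the 4 KSR-iPSC lines the leaders were Col18a1 with 32.6, Col4a1 with 19.3, Col4a2 with 9.76 and Col9a2 with 8.94, ahead of Col1a1 with 3.01. The order differed by line, since in M KSR3 Col4a1 with 43.9 and Col4a2 with 20.7 stood above Col18a1 with 18.5. Col9a2 stood above Col4a2 in F KSR2, with 11.4 against 6.76, and above both type IV chains in F KSR4, with 15.0 against 9.02 and 5.04. In TX 2i ESCs the leaders were Col18a1 with 36.8, Col4a1 with 14.0, Col9a2 with 7.63 and Col4a2 with 6.54, ahead of Col5a1 with 3.22. A list led by fibrillar chains in MEFs was thus led by Col18a1, Col4a1, Col4a2 and Col9a2, in differing orders, in the pluripotent cells. The spread of Col9a2 in KSR-iPSCs (7.80 SD, n = 12) and of Col4a1 there (15.6) was as large as the steps between these neighbours.

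For the 30 genes that were lower in KSR-iPSCs, the median level per library was 0.264% to 1.27% of the MEF mean in KSR-iPSCs and 0.0909% to 0.216% in TX 2i ESCs. The top of the iPSC range was M KSR5 replicate 3, and the other 11 iPSC libraries ran from 0.264% to 0.625%. M KSR5 replicate 3 had the highest level of all iPSC libraries for 11 of the 30 genes, Col1a1, Col1a2, Col3a1, Col5a2, Col12a1, Col16a1, Col4a5, Col4a6, Col6a2, Col7a1 and Col8a1, with 1095 reads of Col1a1, 806 of Col1a2 and 428 of Col3a1. Its 15 fibroblast markers, none of them at 0 reads, summed to 2.33% of the MEF mean, against 0.332% to 1.474% in the other iPSC libraries. The part of other cells in these reads was not tested. For how many of all genes M KSR5 replicate 3 was the highest iPSC library was not counted. The 11 of 30 therefore describe that library and are not shown to be a trait of the collagens. Without that library the number of collagens past the threshold was still 36 against MEFs, and it was 17 between KSR-iPSCs and TX 2i ESCs.

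The lines were then compared among themselves, to see whether a collagen varied between clones. Over the 4 lines 5 of the 40 collagens tested passed the F test, namely Col4a1, Col4a2, Col2a1, Col11a1 and Col18a1. That count is near the share of all genes tested that passed, 14.1%, and is not shown to be a trait of the collagens. Within the female pair, F KSR2 against F KSR4, no collagen passed, where 1.14% of all genes did (0.574% higher, 0.567% lower in F KSR2). At an unadjusted p under 0.05 there were 6 collagens, and limma-voom on the recovered reads also called 0. Within the male pair, M KSR3 against M KSR5, the same 5 genes passed, 3 higher and 2 lower in M KSR3, where 4.48% of all genes passed (2.38% higher, 2.10% lower).

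Col4a1 stood at 8.18, 8.13 and 8.23 log2 RPM in the 3 libraries of M KSR3 and at 5.59, 5.89 and 6.93 in those of M KSR5. The values were 6.22, 5.33 and 7.13 in F KSR2 and 5.73, 6.48 and 5.19 in F KSR4. M KSR3 lay above all other iPSC libraries, and its difference from M KSR5 was 2.05 ± 0.39 (log2, adjusted p = 0.00813, 4.13-fold). Col4a2 had the same order, with 7.12, 6.96 and 7.09 in M KSR3 against 4.23 to 6.17 in the other lines, and differed between the male lines by 1.80 ± 0.42 (adjusted p = 0.0221). Of the 5 calls between the male lines, that of Col4a1 alone passed in every alternative run. The call of Col4a2 was lost when any of M KSR3 replicates 1, 2 or 3 or M KSR5 replicates 1 or 2 was left out.

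Beside these values, the summed level of the 11 extraembryonic endoderm markers, a cell type that secretes much type IV collagen, was 219 to 259 RPM in M KSR3. It was 37.4 to 88.8 RPM in F KSR2, 39.3 to 43.1 RPM in F KSR4 and 44.6 to 131 RPM in M KSR5. The sum is not specific to that cell type, since MEFs had 127 to 180 RPM, mostly from Dab2. The mean of Dab2 was 133 RPM in MEFs and 82.4 RPM in M KSR3. In M KSR3, Afp and Ttr were at 0 reads in every library, and in the other lines Afp was at 0 and Ttr near 0. The other 9 markers had reads in every iPSC library, and the mean of Gata6 was 42.7 RPM in M KSR3 and 4.38 to 6.76 RPM in the other lines. Col4a1 and Col4a2 lie on chromosome 8. Over 534 genes of that chromosome that were well expressed in every KSR-iPSC library, the median of M KSR3 stood 0.38 (log2) above the other lines. Their part in the difference of Col4a1 and Col4a2 was not tested.

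Col18a1 was lower in M KSR3 than elsewhere, at 6.74, 6.76 and 6.56 log2 RPM against 7.35 to 7.90 in the other lines, without overlap. Its difference between M KSR3 and M KSR5 was -1.06 ± 0.20 (log2, adjusted p = 0.00864), and it was lost without M KSR3 replicate 3. Col2a1 was lower in M KSR3 as well, at 2.58, 2.12 and 2.06 against 3.85, 4.22 and 3.06 in M KSR5, with 3.64, 2.82 and 3.12 in F KSR2 and 3.83, 3.91 and 4.17 in F KSR4. That difference was -1.46 ± 0.29 (adjusted p = 0.0102), and it was lost without M KSR3 replicate 2, M KSR3 replicate 3 or M KSR5 replicate 2. Col2a1 lies on chromosome 15. Over 373 genes of that chromosome that were well expressed in every KSR-iPSC library, the median of M KSR5 stood 0.43 (log2) above the other lines. The part of this shift in the result was not tested.

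Col11a1 was lowest in M KSR5, at -1.37, -1.84 and -0.65 log2 RPM, and the other 9 iPSC libraries ran from -0.02 to 1.21. M KSR3 differed from M KSR5 by 1.60 ± 0.40 (log2, adjusted p = 0.0319). This call was lost in 7 alternatives, among them those without M KSR3 replicates 2 or 3 or M KSR5 replicates 1 or 2.

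**Figure D4:**
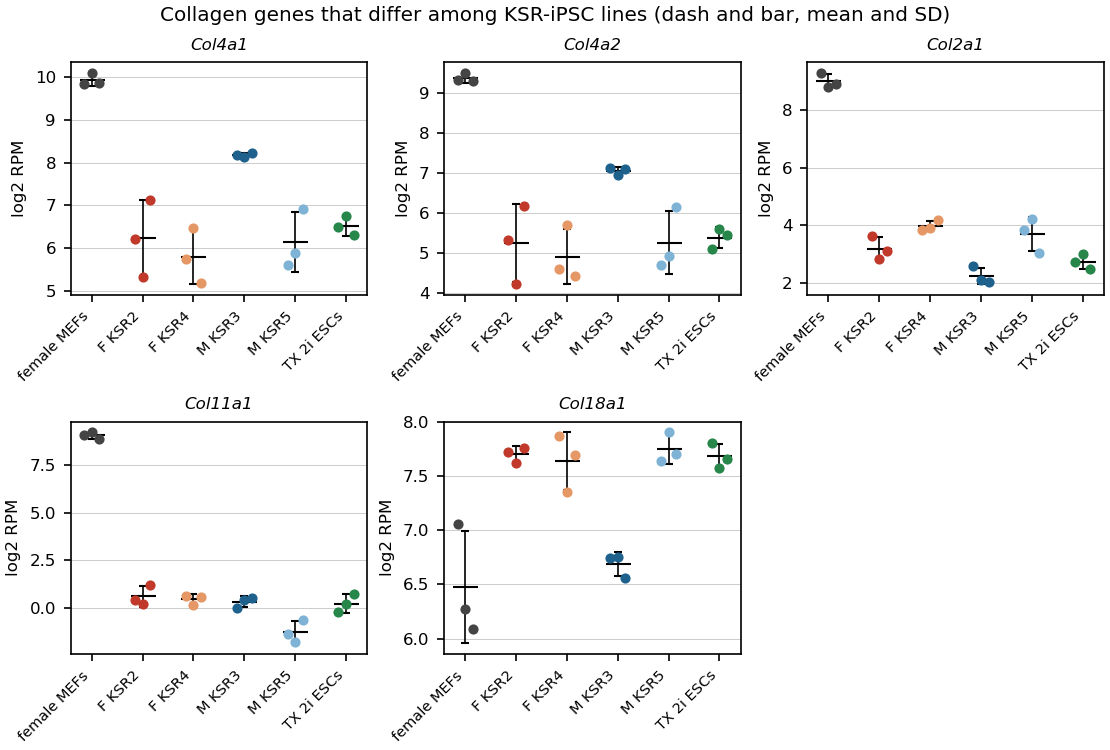
Level (log2 RPM) of Col4a1, Col4a2, Col18a1, Col2a1 and Col11a1 in the 3 libraries of each of the 6 groups, with a dash and bar for mean and SD. Of the KSR lines, M KSR3 stands highest for Col4a1 (8.13 to 8.23) and lowest for Col18a1 (6.56 to 6.76), and M KSR5 lowest for Col11a1.

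Genes that make, process and bind collagen were described as lists. Of the 19 tested genes of collagen modification and folding in the endoplasmic reticulum, 17 were lower and 1 was higher in KSR-iPSCs than in MEFs. The largest falls were those of P4ha3, a prolyl hydroxylase subunit (-5.59 ± 0.63 log2, adjusted p = 3.97e-07), Fkbp10, a prolyl isomerase (-5.17 ± 0.27, adjusted p = 1.56e-11), and P3h3 (-4.98). Colgalt2, a collagen galactosyltransferase, was the gene that rose (2.93 ± 0.54, adjusted p = 9.48e-05). In TX 2i ESCs 15 were lower and 1 was higher than in MEFs, with Colgalt2 at 5.05 ± 0.68, P4ha3 at -9.33, Fkbp10 at -7.22 and P3h2 at -5.53. Between KSR-iPSCs and TX 2i ESCs 4 were higher and 6 lower. The summed level of the list stayed at 13.6% to 18.6% of the MEF mean in KSR-iPSCs.

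Of the 10 tested genes of collagen export and propeptide cleavage, 8 were lower in KSR-iPSCs than in MEFs, led by the propeptide proteinases Tll1 (-7.61 ± 0.80, adjusted p = 1.45e-07), Bmp1 (-5.57 ± 0.38, adjusted p = 4.94e-10) and Adamts2 (-5.27). Klhl12, an adaptor for the large COPII vesicles that carry procollagen, was higher (1.57 ± 0.13, adjusted p = 6.4e-09). In TX 2i ESCs 8 were lower, led by Tll1 (-7.55), Bmp1 (-6.93) and Creb3l1 (-5.79), and 2 higher, Pcolce2 (2.41) and Klhl12 (0.94), and between the pluripotent groups 5 were higher and 2 lower in KSR-iPSCs. All 8 tested collagen receptors were lower in both comparisons with MEFs, led in KSR-iPSCs by the integrin subunit Itga11 (-11.44 ± 0.71, adjusted p = 1.68e-10), the receptor kinase Ddr2 (-8.33 ± 0.55) and the endocytic receptor Mrc2 (-6.41 ± 0.40). Between the pluripotent groups Itga1 was higher (2.82 ± 0.60, adjusted p = 0.00277) and Ddr2 (-2.84 ± 0.55, adjusted p = 0.00139) and Itgb1 (-0.67) were lower in KSR-iPSCs.

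The 9 tested fibril partners, proteoglycans and other proteins that bind collagen fibrils, were lower in both comparisons with MEFs. Ogn (-11.90 ± 0.68, adjusted p = 5.04e-11), Bgn (-11.00 ± 0.76, adjusted p = 6.55e-10) and Fmod (-9.95) fell most in KSR-iPSCs, and Thbs2 (2.30) and Dcn (2.25) were higher in KSR-iPSCs than in TX 2i ESCs. Of the 17 tested basement membrane partners, 6 were higher and 9 lower in KSR-iPSCs than in MEFs. The laminin chains Lama3 (5.43 ± 0.24, adjusted p = 1.72e-12), Lama1 (3.80 ± 0.36, adjusted p = 4.72e-08) and Lamb3 (1.59) rose, and Lama2 (-7.99 ± 0.64, adjusted p = 4.41e-09), Lama4 (-6.40) and Sparc (-3.55 ± 0.19) fell. In TX 2i ESCs 5 of them were higher and 9 lower than in MEFs, and between the pluripotent groups 4 were higher and 5 lower in KSR-iPSCs.

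The marker lists of cell types gave the following counts. All 15 fibroblast markers were lower and all 12 pluripotency markers higher in both comparisons with MEFs, while KSR-iPSCs had 4 fibroblast markers above and 1 below TX 2i ESCs, and 1 pluripotency marker above and 5 below. Of 9 tested extraembryonic endoderm markers, 7 were higher and 1 lower in KSR-iPSCs than in MEFs, 3 were higher and 4 lower in TX 2i ESCs, and 7 were higher in KSR-iPSCs than in TX 2i ESCs, led by Sox7 (5.54), Cubn (5.50) and Gata6 (3.98). Of 5 mesoderm markers 3 were higher and 2 lower in KSR-iPSCs than in MEFs, against 2 and 2 in TX 2i ESCs, and none passed between the pluripotent groups. For 7 cartilage markers the counts were 0 and 5 in KSR-iPSCs and 1 and 5 in TX 2i ESCs, with none between them. For 6 endothelial markers they were 3 and 2, and 1 and 2, with 1 higher in KSR-iPSCs than in TX 2i ESCs. For 3 skeletal muscle markers they were 1 and 2 in each, with 2 higher in KSR-iPSCs than in TX 2i ESCs.

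In the F1 cells, reads that span a strain difference can be assigned to the BL6 (maternal in MEFs and KSR lines) or the CAST allele, a readout that the choice of the genes did not use. In each library between 17.7% and 19.9% of gene reads carried such an assignment. The test in MEFs set each gene's BL6 and CAST levels against each other with each allele scaled to its own deposited total, so that no difference means the BL6 share of these totals, 53.5% to 54.8% in the MEF libraries. Of the 43 genes 25 had at least 20 assigned reads in each MEF library, and 16 passed, 4 towards BL6 and 12 towards CAST, where 31.0% of 9291 genes passed (721 towards BL6, 2162 towards CAST). With the median gene as the reference the 16 became 17, 7 towards BL6 and 10 towards CAST (over all genes 1197 and 1101), and without an intensity trend in the fit 5 collagens passed.

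Among the genes towards BL6, Col10a1 had a BL6 share of 73.8% ± 2.02 (log2 difference 1.25 ± 0.15, adjusted p = 2.98e-05), and Col27a1 one of 65.4% ± 1.65 (0.67 ± 0.17, adjusted p = 0.00791). Col7a1 followed with 64.5% ± 8.15 and Col18a1 with 59.6% ± 4.27 (SD, n = 3 for all). Towards CAST, Col2a1 had a BL6 share of 40.4% ± 2.41 (-0.81 ± 0.07, adjusted p = 1.27e-06) and Col5a1 one of 41.6% ± 0.739 (-0.73 ± 0.05, adjusted p = 1.78e-07). Also past the test towards CAST were Col1a1 at 47.9% ± 0.274 (-0.37, adjusted p = 9.3e-06) and Col5a2 at 48.6% ± 0.232 (-0.33 ± 0.04, adjusted p = 4.02e-05). The X-linked Col4a5, also past the test towards CAST, had 41.6% ± 10.7.

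In the pluripotent groups allelic shares are given as a description. The reads of Col6a5 in KSR-iPSCs came mostly from the CAST allele in every line, although 55.4% to 58.7% of all assigned reads in those libraries were BL6. The BL6 share of Col6a5 was 16.6% ± 12.3 for F KSR2, 9.25% ± 3.83 for M KSR3 and 15.5% ± 3.64 for M KSR5 (SD over 3 libraries, 42 to 210 assigned reads per library). In F KSR4 it was 19.7% of 137 assigned reads in replicate 1 and 9.38% of 32 in replicate 3, with 95% Wilson intervals of 13.9% to 27.2% and 3.24% to 24.2%, and replicate 2 had under 20 assigned reads. MEFs and TX 2i ESCs had under 20 as well. Col6a1 also leaned towards CAST in the iPSC libraries with at least 20 assigned reads, beside 53.1% BL6 in MEFs. Its BL6 reads were 0 of 23 in F KSR2 replicate 1 and 1 of 60 in F KSR4 replicate 2. In M KSR5 they were 2 of 24 in replicate 2 and 8 of 50 in replicate 3. Col2a1 went the other way, from 40.4% BL6 in MEFs to 64.8% ± 15.1 in F KSR4 and 69.3% ± 9.77 in M KSR5.

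Col4a1 differed in its allelic share between lines. Its BL6 share was 54.5% ± 0.749 in MEFs, 56.8% ± 2.10 in M KSR3 and 54.8% ± 8.61 in F KSR4, and M KSR5 stood at 42.8% ± 3.06 (SD over 3 libraries). It was lower still in F KSR2 with 39.0% ± 9.04, and TX 2i ESCs stood at 35.2% ± 5.15. Col4a2 stood at 57.0% ± 1.77 in M KSR3 and 59.3% ± 4.86 in F KSR4, and at 39.5% ± 3.17 in M KSR5 and 42.4% ± 7.87 in F KSR2, so M KSR3 and F KSR4 had the larger BL6 shares of both adjacent genes. Col18a1 stood at 57.0% to 59.0% in the means of the lines and at 50.5% ± 1.51 in TX 2i ESCs. Col27a1 went from 65.4% in MEFs to 30.3% ± 8.74 in TX 2i ESCs, on 29 to 66 assigned reads per library.

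The remaining type I and III reads of M KSR5 replicate 3 came from both alleles. Of its 260 assigned reads of Col1a1, Col1a2 and Col3a1, 138 were BL6, a share of 53.1% with a 95% Wilson interval of 47.0% to 59.1%, beside 49.3% to 50.2% in the MEF libraries.

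**Figure D5:**
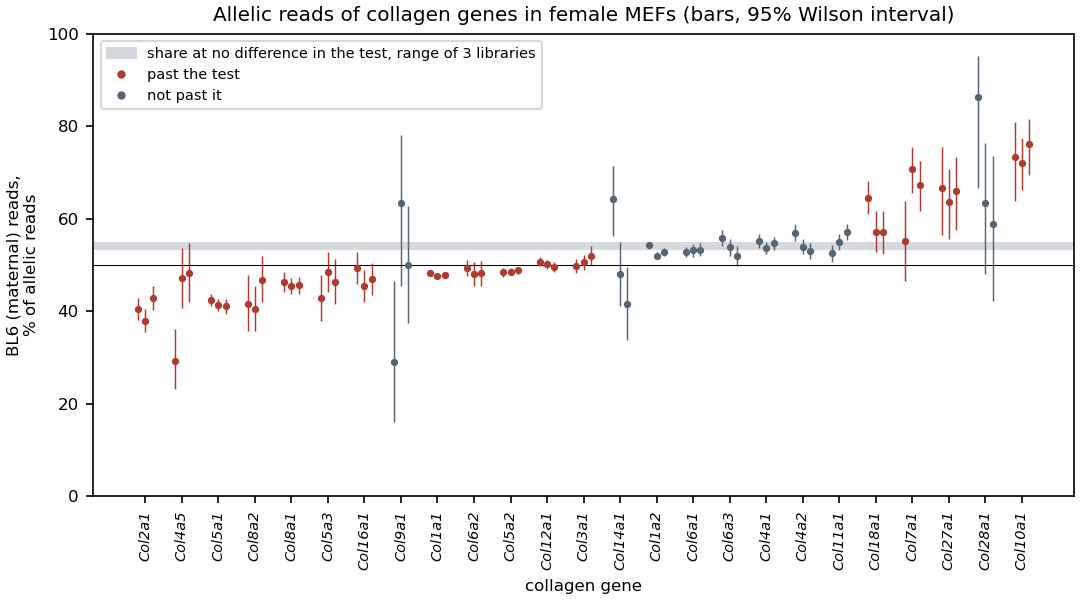
Share of BL6 reads (percent) of each collagen with at least 20 assigned reads in every MEF library, with points for the 3 libraries, bars for their 95% Wilson intervals, red for genes past the test and a band for the share that means no difference in the test (53.5% to 54.8%). Col10a1 at 73.8% lies farthest to the BL6 side and Col2a1 at 40.4% among the farthest to the CAST side.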

How the data were processed

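Total RNA (DNase-treated, RIN above the cut-off of the study) was sequenced on an Illumina HiSeq 2000. The submitters' processing notes name Trim Galore 0.6.1 and 0.6.5, cutadapt 2.3 and HISAT2 2.1.0 with GRCm38, and the authors split reads by allele and counted them per gene in SeqMonk. The labels call the RNA libraries paired-end, the study's methods single-end. The deposited values are log2 RPM per gene, each library scaled to a total of 1.08 to 1.21 times its reads on genes (how it was taken is not given in the sources used here), with genes without reads held at 0.9 read, and with separate columns for the BL6 and CAST alleles. Reads were recovered from these steps as whole numbers (tolerance 0.05), and RPM sums, RPM per kilobase and 3-read floors use the same deposited scale. Shares of collagen reads are of reads on genes. Values of up to 9 reads were odd in 80.9% to 86.8% of cases, so reads may not be independent molecules. The targeted methylation files were not used.

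Each comparison was fitted with limma 3.58.1 (R 4.3.3, intensity trend, 1 mean per group over all 6 groups), with a log2 filter above 0 in at least 3 libraries and Benjamini-Hochberg adjustment over the 14632 genes kept. KSR-iPSCs are the mean of the 4 lines. Adjusted p-values in the text are from these fits. The fit was tested on simulated data. Alternatives were another pseudocount, filter and scaling (reads on genes as the total was added after seeing the data), limma-voom on recovered reads, a replicate block, the line as a random effect, fits on the groups compared only, and leaving out each library or the line M KSR5. Levels between genes were compared per kilobase of the longest coding transcript (GENCODE). Named genes were those most abundant per length in their class, those past a threshold upwards or between pluripotent groups, and those differing among lines, and up to 3 genes per list and direction. Members and lists were chosen with earlier results of these data known. The rows of Col5a1, Col15a1, Col4a1, Col4a2, Col10a1 and Col18a1 carry a neighbouring gene's identifier, but their coordinates fit the collagen. By the study's methods, libraries and gene counts kept the strand. Sequences are from RefSeq (GRCm38.p6). Python 3.11.15, pandas 2.3.3 and scipy 1.17.1 were used.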

Additional observations from a re-analysis of the deposited data

Results flagged for a closer look

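The level of 5 of the 40 collagens tested differed among the 4 KSR-iPSC lines by the F test over the line means. These lines share their medium and the same contrast with MEFs. Of all 14632 genes tested, 14.1% passed. The count of collagens is near that share and is not shown to be a trait of the collagens. The adjusted p (limma, Benjamini-Hochberg) was 0.00203 for Col4a1, 0.00322 for Col2a1, 0.00424 for Col18a1, 0.00736 for Col4a2 and 0.0106 for Col11a1. Over the alternatives it ranged from 0.000734 to 0.0159 for Col4a1, from 0.00101 to 0.0232 for Col2a1, from 0.00163 to 0.0389 for Col18a1, from 0.00221 to 0.0431 for Col4a2 and from 0.0068 to 0.0985 for Col11a1. M KSR3 held the highest levels of Col4a1 and Col4a2 and the lowest of Col18a1 and Col2a1, and M KSR5 the lowest of Col11a1. Line, embryo and sex cannot be told apart here except between lines of the same embryo.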

How the results depend on the processing

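Of the single-gene results recomputed under the alternatives, 3629 kept their direction and side of the threshold, 73 lost a call, 22 gained one and 0 reversed. Between KSR-iPSCs and TX 2i ESCs, 15 collagens became 9 with limma-voom on recovered reads and 6 with the line as a random effect, and 16 allelic calls in MEFs became 5 without an intensity trend. Leaving out 1 library gave 28 to 38 collagens for KSR-iPSCs against MEFs, 25 to 36 for TX 2i ESCs against MEFs, 10 to 17 between KSR-iPSCs and TX 2i ESCs, 4 to 8 among lines (8 without F KSR4 replicate 1), 0 to 0 between the female lines, 1 to 5 between the male lines and 12 to 18 for the allelic test. When 1 MEF library was left out, whichever it was, 32 collagens were tested, since the 8 that passed the filter through MEFs alone then missed it. Between the male lines the counts were 2 without M KSR3 replicate 2, 1 without M KSR3 replicate 3, 3 without M KSR5 replicate 1 and 2 without M KSR5 replicate 2. The causes of these changes were not tested.

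The replicate block gave 36, 35, 16, 5, 0 and 5 collagens in the 6 comparisons of groups (the 2 against MEFs, KSR-iPSCs against TX 2i ESCs, among lines, female lines, male lines) and, over all genes, 282 in place of 167 between the female lines. Same-numbered libraries correlated between -0.197 and 0.382 in their deviations from the group means, and 13 of 45 pairs were above 0.1. Since not every pair was above 0.1 and the labels name no shared set, the block stayed an alternative. That 13 of 18 libraries correlated best with their own number is a hint from the data, not from the design, that numbers mark shared sets. Over all genes, the calls between KSR-iPSCs and TX 2i ESCs went from 3372 to 901 with the line as a random effect and to 2125 to 2154 without a TX 2i ESC library. Among lines they went from 2070 to 1036 with only the groups compared, 3947 without F KSR4 replicate 1, and 1001 and 995 without M KSR3 replicates 2 and 3. Between the female lines 167 became 1 with only the groups compared, 66 and 73 without F KSR2 replicates 1 and 2, and 1660 and 274 without F KSR4 replicates 1 and 2. Between the male lines 656 became 1851 with only the groups compared, 417, 148 and 145 without M KSR3 replicates 1, 2 and 3, and 268 and 225 without M KSR5 replicates 1 and 2. The allelic calls went from 2883 to 1302 without an intensity trend and 1585 without MEF replicate 2. The median gene stood at 0.22 (log2) between KSR-iPSCs and MEFs with library totals, 0.04 with median-of-ratios scaling, 0.16 with totals without collagens and 0.28 with reads on genes as the total (chosen after seeing the data). Under the latter 31 in place of 32 collagens were lower in TX 2i ESCs than in MEFs, without Col22a1, and the other counts of collagens by direction did not change under these scalings. At these depths, genes with a few reads per library, such as Col6a4 and Col6a6, rest on counts near the floor.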
